A study of Mus musculus with 1 sample.

Results

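The genes examined encode the receptors through which alveolar macrophages (AMs) read granulocyte-macrophage colony-stimulating factor (GM-CSF), macrophage colony-stimulating factor (M-CSF) and vascular endothelial growth factor (VEGF), and the first signalling steps behind the GM-CSF receptor. They were taken by symbol, and all 8 members (Csf2ra, Csf2rb, Csf2rb2, Csf1r, Flt1, Jak2, Stat5a and Stat5b) were found among the 11918 genes of the expression matrix. AMs (CD45+CD11c+SiglecF+) were sorted by flow cytometry from the lung of 1 adult mouse, and their transcriptomes were profiled cell by cell with the 10x Genomics 3′ v2 assay, for which 5000 sorted cells were loaded. The labels give the genotype as wild-type, and the methods give Hdac3 fl/fl, that is, both alleles of the histone deacetylase gene Hdac3 flanked by loxP sites with no Cre to delete them. The strain was FVB/NJ backcrossed to C57BL/6 for over 10 generations, the age was 8 to 12 weeks, and no treatment is labelled. Only this library is described, the one with Hdac3 deleted being not analysed here, so there is 1 group of 1 sample, no difference between mice or genotypes was tested, and every interval below covers counting error only.

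GM-CSF binds a receptor made of a ligand-specific alpha chain (CSF2RA) and a signalling beta chain (CSF2RB). The beta chain carries the tyrosine kinase JAK2, which phosphorylates STAT5A and STAT5B so that they enter the nucleus. In the lung this signal is required for AMs to arise and to handle surfactant lipid, while M-CSF, read by the receptor tyrosine kinase CSF1R, is the growth factor of many other tissue macrophages. FLT1 is a receptor tyrosine kinase for VEGF-A, VEGF-B and placental growth factor, best known from endothelial cells and also found on monocytes and macrophages.

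The library held 2055 cells with a total of 7222978 unique molecular identifiers (UMIs, each the tag of a single captured RNA molecule), and 1143 to 8603 UMIs per cell (median 3278). Of the 16 AM markers, 15 were listed, all 15 had UMIs, and Chil3, a secreted lectin of AMs, had a UMI in 100% of cells. Mitochondrial genes took more than 5% of the UMIs in 384 cells, above the limit that the methods describe, and these cells were kept. Hdac3 itself had 119 UMIs in 115 cells. Because the assay counts molecules at the 3′ end, gene length does not enter, and levels of different genes are set side by side as UMIs per 10000 UMIs summed over all cells.

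The receptor chains for GM-CSF led the group, and the common beta chain was the most abundant of the 8. Csf2rb had 2008 UMIs, a level of 2.78 UMIs per 10000 (95% exact Poisson interval 2.66 to 2.90). Csf2ra, the alpha chain that gives the receptor its specificity, had 930 UMIs, a level of 1.29 per 10000 (1.21 to 1.37). Flt1 followed with 784 UMIs, a level of 1.09 per 10000 (1.01 to 1.16). Csf1r had 387 UMIs, a level of 0.536 per 10000 (0.484 to 0.592), and Csf2rb2, a second beta chain of the mouse that serves interleukin-3, had 372 UMIs, a level of 0.515 per 10000 (0.464 to 0.570). The kinase and transcription factor genes were lower, with 162 UMIs for Stat5b, 138 for Stat5a and 126 for Jak2. In this order Csf2rb, Csf2ra and Flt1 had intervals that did not overlap with those of their neighbours. Csf1r and Csf2rb2 overlapped with each other, as did Stat5b, Stat5a and Jak2 among themselves. Against all listed genes, Csf2rb stood above 95.1% and Csf2ra above 89.6%, while Csf1r stood above 78.1% and Jak2 above 53.4%.

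**Figure D1:**
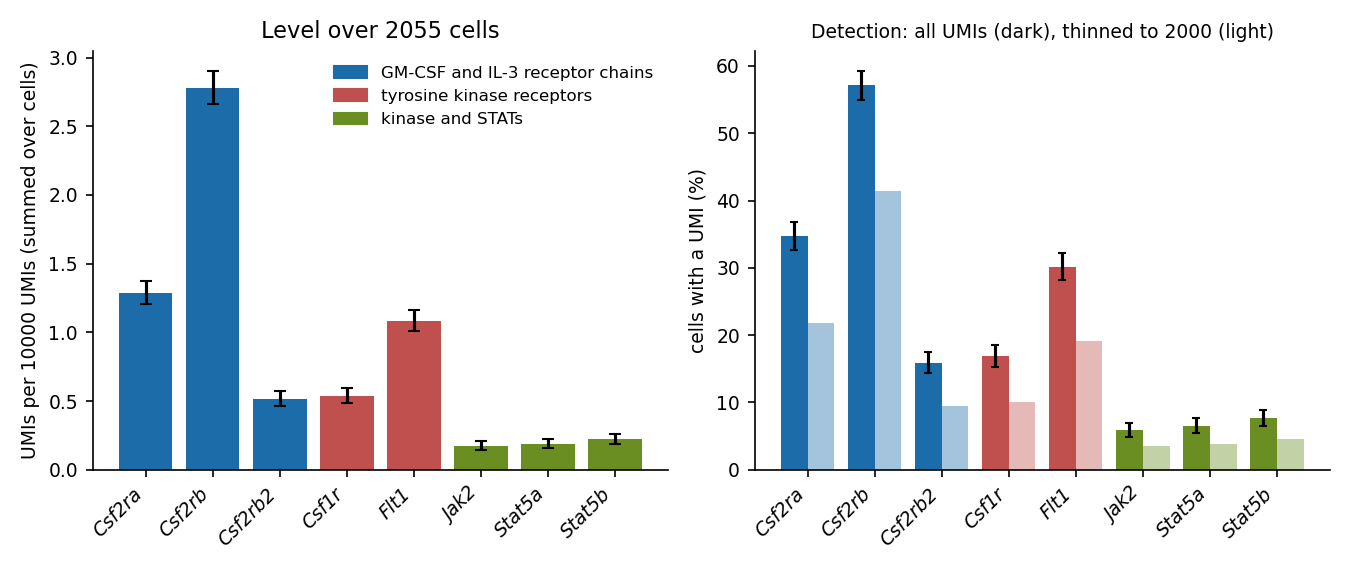
Left, level of each member as UMIs per 10000 UMIs summed over 2055 cells, with 95% exact Poisson intervals. Right, percent of cells with at least 1 UMI with all UMIs (dark bars, exact binomial intervals) and after each cell was thinned to 2000 UMIs (light bars, 1756 cells). Csf2rb is highest on both scales at 2.78 UMIs per 10000 and 57.1% of cells, and Jak2, Stat5a and Stat5b each stay under 10% of cells.

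Among the RNAs of the GM-CSF receptor, UMIs of the beta chain gene outnumbered those of the alpha chain gene, and receptor protein was not measured. There were 2.16 Csf2rb UMIs for each Csf2ra UMI (95% exact conditional interval 2.00 to 2.34), which is the same as 0.463 Csf2ra UMIs for each Csf2rb UMI. This ratio of Csf2ra to Csf2rb was 0.439 in the lowest depth tertile of cells and 0.488 in the highest. Csf2ra exceeded the second beta chain Csf2rb2 2.5-fold (2.21 to 2.83), and Csf2rb exceeded Csf2rb2 5.40-fold (4.83 to 6.05). Csf2ra also exceeded Csf1r 2.40-fold (2.13 to 2.71) and Flt1 1.19-fold (1.08 to 1.31). Stat5b and Stat5a were present at a ratio of 1.17 (0.930 to 1.48), so neither was shown to be the more abundant.

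Detection in single cells followed the same order but was sparse. A Csf2rb UMI was found in 1174 cells (57.1%, 95% exact binomial interval 55.0 to 59.3). For Csf2ra the figure was 714 cells (34.7%, 32.7 to 36.9), for Flt1 619 cells (30.1%, 28.1 to 32.2), for Csf1r 346 cells (16.8%, 15.2 to 18.5) and for Csf2rb2 326 cells (15.9%, 14.3 to 17.5). The signalling genes were each found in under 1 cell in 10, with Stat5b in 7.69% of cells, Stat5a in 6.52% and Jak2 in 5.84%. Most detections rested on a single molecule, since 547 of the 714 Csf2ra cells and 644 of the 1174 Csf2rb cells had 1 UMI, and 35 and 200 cells respectively had 3 or more. The highest count in any cell was 8 UMIs for Csf2ra, 7 for Csf2rb, 4 for Flt1, 3 for Csf1r and Csf2rb2, and 2 for Jak2, Stat5a and Stat5b.

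Depth set much of this detection. With random sampling of molecules, the level of each gene and the UMIs of each cell alone would give 35.3% of cells with Csf2ra, 59.4% with Csf2rb, 16.3% with Csf2rb2, 16.9% with Csf1r and 30.9% with Flt1, each within 2.5 percentage points of the observed share. After thinning to 2000 UMIs, which 1756 cells reached, the shares were 41.3% for Csf2rb, 21.7% for Csf2ra, 19.1% for Flt1, 10.1% for Csf1r and 9.55% for Csf2rb2. A cell without a UMI therefore cannot be called negative for a receptor. No cell type that should lack these genes was sorted beside the AMs. As a guide to RNA from other cells, Sftpc and Scgb1a1, the surfactant and secretoglobin genes of lung epithelium, had a UMI in 6.86% and 5.499% of cells. Csf2rb, Csf2ra, Flt1, Csf1r and Csf2rb2 lay above both shares. Epcam and Krt19 of the same epithelial list were found in 58.1% and 48.4% of cells, so the position of the members depends on the gene taken as a guide, and the level of free RNA was not measured. Jak2 and Stat5a lay at or below the share of Sftpc, and the interval of Stat5b (6.57 to 8.93) included it, so their detection is not separated from that of Sftpc by the share of cells alone.

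Spread over cells was close to that of molecule sampling. The mean squared Poisson residual after depth, which is 1 for pure sampling, was 1.16 for Csf2rb, 1.14 for Flt1, 1.11 for Csf1r, 1.09 for Csf2ra and 1.06 for Csf2rb2. Among genes with a mean level close to its own, 86.1% had a lower value than Flt1, 85.3% than Csf1r, 71.4% than Csf2rb, 65.5% than Csf2ra and 62.6% than Csf2rb2. Jak2 (0.997), Stat5a (0.985) and Stat5b (0.946) were at or under the value of sampling. All 5 receptor genes thus had values a little above 1 and above those of most genes of like level. No interval was taken for these values, so greater unevenness than sampling or like genes was not shown.

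The genomic setting bears on how far near-identical genes can be told apart. In the GRCm38 build (mm10), Csf2ra lies at chr19:61223957-61228429 on the minus strand. Csf2rb (chr15:78325752-78353847, plus strand) and Csf2rb2 (chr15:78282507-78305721, minus strand) are neighbours with 20030 bases between them. Stat5b (chr11:100780731-100850724, minus strand) and Stat5a (chr11:100859351-100885169, plus strand) are also neighbours, 8626 bases apart. Flt1 lies at chr5:147561604-147726011 on the minus strand and Jak2 at chr19:29251828-29313080 on the plus strand. The reads of this assay cover 98 bases near the 3′ end, so the last 300 bases of the protein-coding transcripts were compared with all other transcripts. For Csf2rb, 8 of 813 sequences of 98 bases occurred in Csf2rb2, and for Stat5a, 12 of 610 occurred in Stat5b. None of the 406 of Csf2rb2 and none of the 203 of Stat5b was shared in this way, although over the longest transcripts 7.18% for Csf2rb and 7.43% for Csf2rb2 were common to the pair. Most 3′ reads of these paralogs can thus be placed, while a read from the shared stretches would be uncertain. The count of Flt1 joins its 2 protein-coding transcript forms, and the membrane and soluble receptors were not separated.

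Promoters of the receptor genes are shown because Csf2ra and Csf2rb2 are read here as chains of related receptors and Flt1 as a receptor outside its best-known cell type. The sequences run from 250 bases before to 50 bases after the annotated start in RefSeq (GRCm38.p6). They were read for 6 of the 8 members, and those of Csf2rb and Csf1r were not read. Capitals mark GAGGAAG, the core of the sequence preferred by PU.1 (the transcription factor encoded by Spi1, required for macrophages), or its reverse complement CTTCCTC. The windows are chr19:61228369-61228668 on the minus strand for Csf2ra, chr15:78305672-78305971 on the minus strand for Csf2rb2 and chr5:147725962-147726261 on the minus strand for Flt1.
Csf2ra: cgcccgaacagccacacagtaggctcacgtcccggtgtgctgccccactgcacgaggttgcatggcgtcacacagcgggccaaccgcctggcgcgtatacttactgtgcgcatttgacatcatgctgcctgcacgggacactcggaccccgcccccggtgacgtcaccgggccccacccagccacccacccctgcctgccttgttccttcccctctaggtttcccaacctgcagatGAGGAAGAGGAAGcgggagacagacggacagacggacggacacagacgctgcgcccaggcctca
Csf2rb2: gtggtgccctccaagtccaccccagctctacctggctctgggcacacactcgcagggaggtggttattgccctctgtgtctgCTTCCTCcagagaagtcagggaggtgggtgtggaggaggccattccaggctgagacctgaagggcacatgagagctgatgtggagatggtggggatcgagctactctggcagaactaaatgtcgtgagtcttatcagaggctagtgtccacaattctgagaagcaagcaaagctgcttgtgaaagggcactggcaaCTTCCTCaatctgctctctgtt
Flt1: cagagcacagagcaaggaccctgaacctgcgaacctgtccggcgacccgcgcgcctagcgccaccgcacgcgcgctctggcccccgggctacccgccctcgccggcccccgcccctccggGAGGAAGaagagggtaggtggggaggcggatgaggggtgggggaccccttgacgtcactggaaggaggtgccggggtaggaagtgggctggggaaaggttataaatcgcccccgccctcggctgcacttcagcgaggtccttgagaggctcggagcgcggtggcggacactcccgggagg

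In Csf2ra the letters occurred at 2 places in tandem, beginning 14 and 8 bases before the start site and so overlapping by 1 base. In Csf2rb2 the reverse complement occurred at 2 places, beginning 168 bases before and at base 29 after the start. Flt1 held 1 match, beginning 130 bases before the start, and the windows of Jak2, Stat5a and Stat5b held none. Of all 32851 promoters of this length, 4477 (13.6%) held the letters on either strand. A match is a description of the sequence, and no binding was measured. Spi1, named here after its values were seen, had 1694 UMIs and a level of 2.35 UMIs per 10000.

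Whether the chains of a receptor are seen in the same cell was examined against depth, since a deeply sequenced cell detects more of every gene. Csf2ra and Csf2rb were both found in 427 cells (20.8%), where depth alone gives 465, a ratio of observed to expected of 0.917 (95% exact Poisson interval 0.832 to 1.01). Csf2ra and Csf2rb2 were both found in 143 cells (ratio 1.08, 0.906 to 1.27), and Csf2rb and Csf2rb2 in 208 cells (ratio 0.956, 0.830 to 1.095). None of the 3 intervals excludes 1. They take the expectation as fixed, although it was computed from the same cells, so including 1 does not show agreement with depth. Cells with Csf2ra but no Csf2rb numbered 287, cells with Csf2rb but no Csf2ra 747, and cells with neither 594, where depth gives 260, 755 and 575. The 427 cells with both chains had a median of 4312 UMIs, and the 594 with neither had 2756. None of the 3 chains was detected in 529 cells (25.7%), where 498 are given by depth.

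The expectation itself leans high for genes that vary more than sampling, so each ratio was read beside that of the same gene with all others. With at least 20 expected joint cells, Csf2ra had a median ratio of 0.969 over 7738 genes and Csf2rb a median of 0.933 over 8682 genes. The ratio of Csf2ra with Csf2rb stood above 23.8% of the genes paired with Csf2ra, and that of Csf2ra with Csf2rb2 above 88.8%. With the expectation taken from a logistic fit of each gene on log depth, Csf2ra and Csf2rb gave 0.984 and Csf2ra and Csf2rb2 gave 1.14. The 2 chains of the GM-CSF receptor were thus found together about as often as depth alone gives.

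Joint detection across the lineages of receptor was read in the same way. Csf1r was found with Csf2ra in 149 cells (ratio 1.08, 0.915 to 1.27), with Csf2rb in 213 cells (0.945, 0.822 to 1.08) and with Flt1 in 127 cells (1.05, 0.875 to 1.248). Flt1 was found with Csf2ra in 257 cells (1.03, 0.910 to 1.17) and with Csf2rb in 392 cells (0.960, 0.868 to 1.06). Of the 346 Csf1r cells, 278 also had at least 1 of the GM-CSF and interleukin-3 receptor chains, where depth gives 280. Csf1r and the GM-CSF receptor did not mark separate cells in these data at this depth. The highest ratios were those of Stat5a with Stat5b (17 cells, 1.46, 0.853 to 2.34) and of Csf2rb2 with Stat5b (39 cells, 1.34, 0.953 to 1.83), and both intervals include 1. Beside all other genes, the ratio of Csf2rb2 with Stat5b stood above 99.7% of the genes paired with Csf2rb2 and 97.9% of those paired with Stat5b. That of Stat5a with Stat5b stood above 99.8% for either gene, but it rests on 11.6 expected cells, fewer than the 20 required of the genes it is set beside. Over all 8 members, 306 cells had none, 646 had 1, 595 had 2 and 8 had 6, the most found in any cell.

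**Figure D2:**
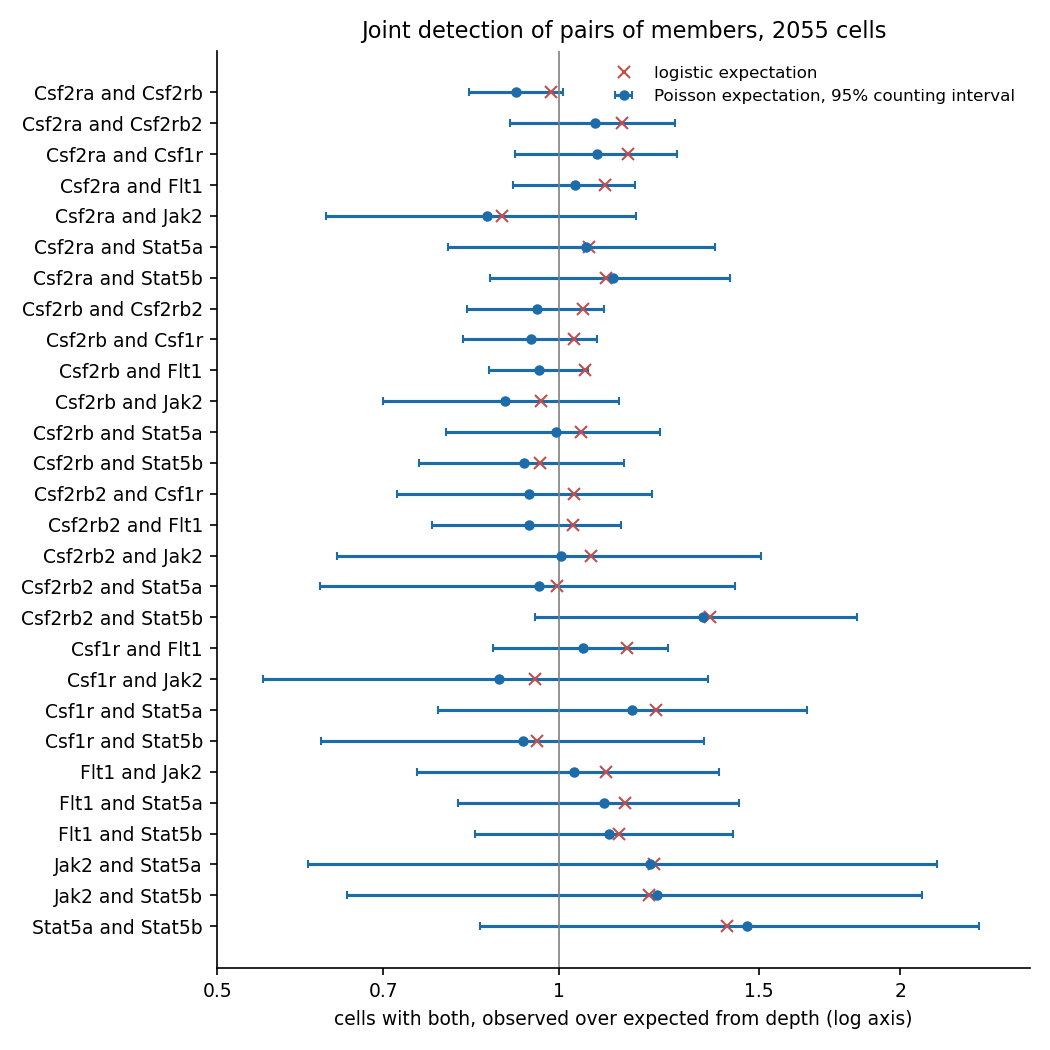
Cells with both members of a pair, observed over expected from depth, for the 28 pairs (log axis). Circles with bars use the Poisson expectation with 95% exact intervals on the observed count, and crosses use a logistic fit on log depth. All 28 intervals include 1, which does not by itself show agreement with depth, and Csf2ra with Csf2rb stands at 0.917 and 0.984.

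Relation to the cell cycle was examined next, since AMs renew themselves in the lung and GM-CSF is a growth signal. Cells were ordered by the share of their UMIs on 97 genes of the S and G2/M phases, and the highest 5% (103 cells, at least 76.1 cycle UMIs per 10000) were set against the other 1952. These cells are a range of a score and not a cell type, and 12 cells lay within 10% of the limit. They were deeper, with a median of 4281 UMIs against 3240. The cycle genes took 154 UMIs per 10000 in the range and 17.2 in the other cells.

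Csf1r was the member that differed most. It had 7 UMIs in the 103 cells of the range and 380 in the other cells, a level of 0.153 per 10000 (0.0617 to 0.316) against 0.562 (0.508 to 0.621), a ratio of 0.273 (95% exact conditional interval 0.109 to 0.569). A Csf1r UMI was found in 5.83% of the cells of the range and 17.4% of the others, and after thinning to 2000 UMIs in 2.32% of 98 cells and 10.5% of 1658. Among genes with at least 200 UMIs, 0.187% had a lower ratio. Counted as UMIs per cell, with no scaling to the total, the ratio for Csf1r was 0.349 (0.139 to 0.726), where the median gene stood at 1.26.

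Csf1r lies at chr18:61100598-61132149 on the plus strand and shares no sequence of 98 bases with another gene over its longest transcript. It overlaps Hmgxb3, which is annotated on the other strand, and Stat5a likewise overlaps Stat3. The assay keeps strand, but how strand was used in counting is not given in the sources used here.

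Both chains of the GM-CSF receptor were lower by less. Csf2rb had 89 UMIs in the range and 1919 outside it, levels of 1.95 and 2.84 per 10000 and a ratio of 0.688 (0.550 to 0.851). Csf2ra had 41 and 889 UMIs, levels of 0.899 and 1.31 per 10000 and a ratio of 0.684 (0.488 to 0.936). The interleukin-3 chain Csf2rb2 had 15 and 357 UMIs and a ratio of 0.623 (0.345 to 1.04), an interval that includes 1. Counted as UMIs per cell, a scale added after the data were seen, the ratios were 0.879 (0.703 to 1.09) for Csf2rb and 0.874 (0.623 to 1.195) for Csf2ra, so the difference of these chains is one of share and was not shown for molecules per cell. The balance of the chains was alike in both sets, with 2.17 Csf2rb UMIs for each Csf2ra UMI in the range (1.48 to 3.22) and 2.16 in the other cells (1.99 to 2.34). For each Csf2ra UMI there were 0.171 Csf1r UMIs in the range (0.0646 to 0.384) and 0.427 in the other cells (0.378 to 0.483).

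Flt1, Jak2 and the STAT5 genes had intervals that include 1. Flt1 had 44 UMIs in the range and 740 outside it, levels of 0.965 and 1.09 per 10000 and a ratio of 0.882 (0.635 to 1.196). Jak2 (7 and 119 UMIs) had a ratio of 0.873 (0.343 to 1.85), Stat5b (9 and 153) one of 0.873 (0.392 to 1.70) and Stat5a (10 and 128) one of 1.16 (0.543 to 2.20). At these counts a change of the signalling genes by 1.5-fold in either direction was not detectable.

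Of the 5 members with at least 200 UMIs, 0 were at least 1.5-fold higher in the range, where 10.6% of the 4279 genes tested were, and 2 (Csf1r and Csf2rb2) were at least 1.5-fold lower, where 9.56% were. Csf2ra and Csf2rb lay just outside that limit of 0.667. Over the other settings tried for this range, the ratio ran from 0.189 to 0.514 for Csf1r, from 0.568 to 0.861 for Csf2rb2, from 0.526 to 0.874 for Csf2ra and from 0.383 to 0.879 for Csf2rb, so Csf1r stayed below the limit in each of them and Csf2ra, Csf2rb and Csf2rb2 did not stay on one side of it. All 5 had a ratio below 1, with a median of 0.684, and 2225 of the 4279 genes had a ratio below 1, with a median of 0.987. AM markers moved in the same direction, since all 15 had a ratio below 1, with a median of 0.727, and their summed level was 205 UMIs per 10000 in the range (82.0 to 405 over cells) and 267 in the other cells (24.0 to 1059). The other lists did not all move alike. The summed epithelial markers had a ratio of 0.744 (0.647 to 0.853), with 9 of 13 genes below 1. The dendritic cell markers had 0.616 (0.441 to 0.839). The lymphocyte markers had 0.0430 (0.00885 to 0.126), and Jchain, found in 66 cells, gave 1006 of their 1038 UMIs. The endothelial (1.11, 0.497 to 2.18) and neutrophil (1.07, 0.739 to 1.499) lists had intervals that include 1. So did the monocyte (0.793, 0.3125 to 1.68) and eosinophil (0.883, 0.678 to 1.13) lists. The fibroblast marker had 0 UMIs in the range, and its interval included 1 as well. With the UMIs of the cycle genes left out of the totals, the ratios were 0.277 for Csf1r, 0.694 for Csf2ra, 0.6975 for Csf2rb and 0.632 for Csf2rb2. The part of the marker lists in the ratios of the members was not tested. Ordered by cycle score, Csf1r stood at 0.575 UMIs per 10000 in the lower 80% of cells, 0.489 in the next 15% and 0.153 in the highest 5%, so that the low level was seen at the top of the order. Csf2rb stood at 2.82, 2.92 and 1.95 and Csf2ra at 1.35, 1.09 and 0.899 in the same order.

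**Figure D3:**
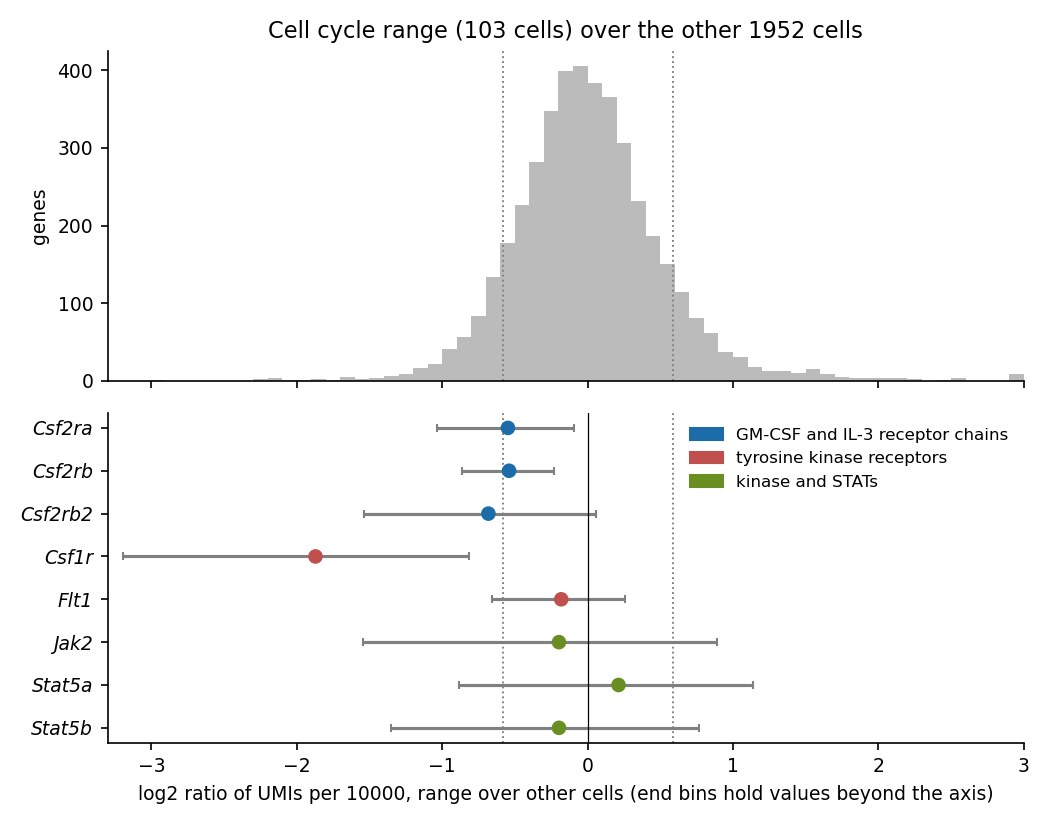
Top, log2 ratio of UMIs per 10000 between the cell cycle range (103 cells) and the other 1952 cells for the 4279 genes with at least 200 UMIs outside the cycle lists. Bottom, the 8 members with 95% exact conditional intervals, and dotted lines at 1.5-fold in either direction. Csf1r lies farthest to the left at a ratio of 0.273, Csf2ra (0.684) and Csf2rb (0.688) have intervals below 1, and Csf2rb2 (0.623) and the other members have intervals that include a ratio of 1.

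**Figure D4:**
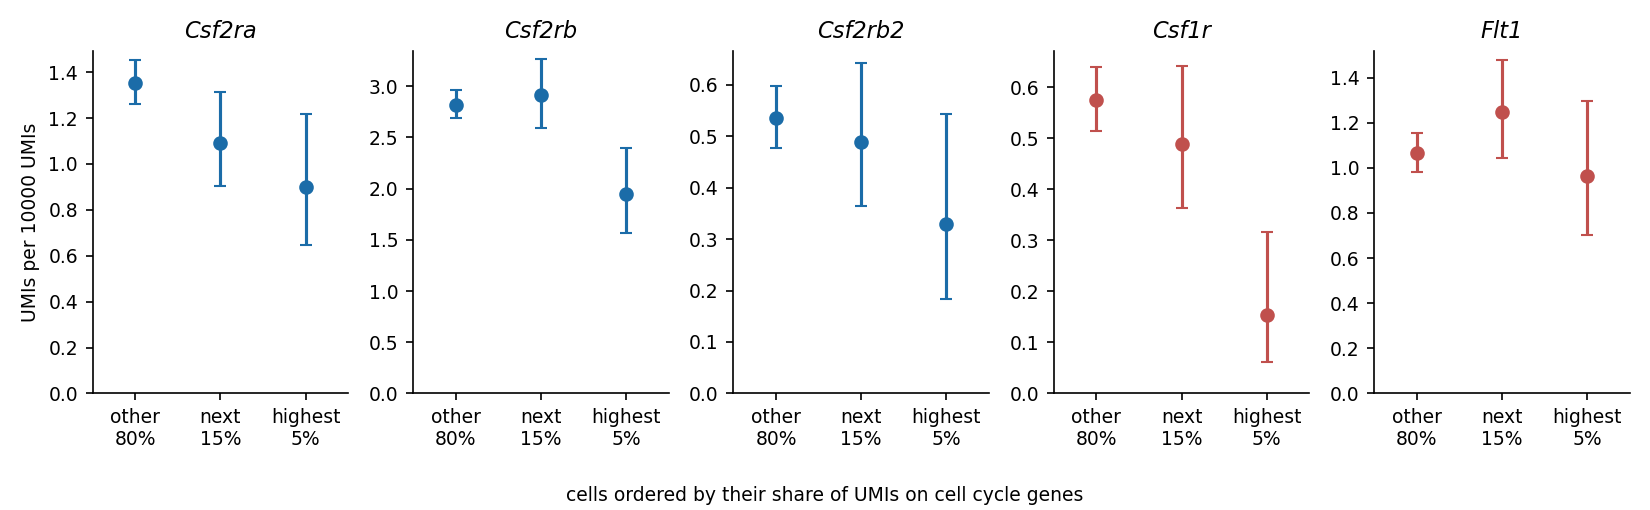
Level of the 5 receptor genes in UMIs per 10000, with 95% exact Poisson intervals, in cells ordered by their share of UMIs on cell cycle genes. The interval of Csf1r in the highest 5% of cells (0.0617 to 0.316) lies below that of the other 80%, and that of Flt1 (0.701 to 1.30) overlaps with it.

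Ranking by each phase alone gave a like picture for Csf1r, with a ratio of 0.359 (0.163 to 0.689) for the S list and 0.396 (0.188 to 0.737) for the G2/M list. In the highest depth tertile alone, where 34 cells form the range, the ratio of Csf1r was 0.210 (0.0253 to 0.771) and that of Csf2ra 0.555 (0.301 to 0.941). The Csf1r ratio there rests on very few UMIs, and its interval is wide. Csf2rb was less steady, with 0.383 (0.233 to 0.596) in that tertile and 0.865 (0.744 to 1.00) when the range was widened to 10% of cells.

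The same comparison was made for cells highest in antigen presentation genes and in inflammatory genes, which the study uses to describe AM subsets. For 4 MHC class II genes (H2-Aa, H2-Ab1, H2-Eb1 and Cd74), the highest 5% held 113 UMIs per 10000 of the list against 3.46, and 23 cells lay within 10% of the limit. Csf2rb had a ratio of 0.762 (0.605 to 0.949) in this range, Csf2ra 0.908 (0.660 to 1.22), Csf2rb2 1.31 (0.845 to 1.96), Csf1r 1.15 (0.730 to 1.75) and Flt1 1.06 (0.769 to 1.44). None of the 5 was at least 1.5-fold higher, where 1.86% of 4297 genes were, or lower, where 10.4% were. Stat5a had 2 UMIs in the range and 136 outside it, a ratio of 0.257 (0.0308 to 0.945) that rests on 2 molecules.

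For 5 cytokine and chemokine genes (Tnf, Il1a, Cxcl1, Cxcl2 and Cxcl3), the highest 5% held 143 UMIs per 10000 of the list against 8.37, with 27 cells within 10% of the limit. Csf2ra had a ratio of 1.13 (0.853 to 1.49), Csf2rb 0.940 (0.763 to 1.15), Csf2rb2 1.09 (0.676 to 1.68), Csf1r 0.898 (0.534 to 1.42) and Flt1 0.764 (0.522 to 1.08). All 5 intervals include 1. No member was at least 1.5-fold higher, where 3.61% of 4296 genes were, and none of the 5 was lower by that much, where 9.92% were. Csf1r was therefore low in the cycle range and near the level of the other cells in these ranges, where both intervals include 1, with 7, 24 and 19 UMIs in 103 cells each.

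Flt1 is best known from endothelial cells, so RNA of such cells was looked for. Of 13 endothelial markers, 7 were listed, with 129 UMIs in all, of which Vwf gave 106 and Pecam1 11. Kdr, Tek, Tie1, Cldn5, Egfl7 and Ramp2 were not listed. Endothelial UMIs stood at 0.144 per 10000 in the 619 cells with Flt1 and at 0.196 in the 1436 without it. Without Vwf there were 9 UMIs in all in the 619 cells with Flt1 and 14 in the 1436 without it. Relative to the size of the sets, these counts are higher in the cells with Flt1, so the direction turned when Vwf was left out. At so few UMIs no difference was shown. The 784 Flt1 UMIs stood beside 106 of Vwf, 11 of Pecam1 and 2 of Cdh5, the junction cadherin of endothelium. The source of the Flt1 RNA was not tested. Monocyte markers were also rare, with 138 UMIs in 8 listed genes, led by Ccr2 (31), and Ly6c2, Fcnb, C1qc and F13a1 were not listed.

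Epithelial markers had 4583 UMIs in 13 listed genes, led by Epcam (2178 UMIs, 58.1% of cells) and Krt19 (1654 UMIs, 48.4% of cells), with Krt8, Krt18 and Cldn18 not listed. Neutrophil markers had 536 UMIs, led by S100a8 and Mmp8, with S100a9, Retnlg, Ly6g, Camp and Ngp not listed. Lymphocyte markers had 1038 UMIs, 1006 of them Jchain in 3.21% of cells and 13 Cd79a, with the T cell genes Cd3e, Cd3d, Cd3g and Trac not listed, nor Nkg7, Gzma and Cd79b. Dendritic cell markers had 1053 UMIs, of which Cd24a gave 1017 and Clec9a 19, with Flt3, Xcr1, Cd209a and Fscn1 not listed. The single fibroblast marker listed, Acta2, had 8 UMIs, and of the eosinophil list only Siglecf, which AMs also carry, was listed. The share of the members' UMIs that came from such cells was not tested.

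Csf2ra and Csf2rb took a larger share of UMIs in cells over the mitochondrial limit. In the 384 cells with more than 5% mitochondrial UMIs, Csf2ra stood at 1.70 per 10000 against 1.21 in the other 1671, a ratio of 1.41 (1.196 to 1.65), and Csf2rb at 3.33 against 2.67, a ratio of 1.245 (1.11 to 1.39). Csf1r (ratio 1.30, 0.999 to 1.67), Csf2rb2 (1.28, 0.975 to 1.66) and Flt1 (1.05, 0.864 to 1.27) had intervals that include 1. Those cells were shallower, with a median of 2684 UMIs against 3403. Csf1r and Flt1 varied with depth as well, at 0.784 and 1.34 per 10000 in the lowest depth tertile and 0.491 and 1.02 in the highest.

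Genes whose pattern over cells was most like that of a member were sought for the 3 members found in at least 20% of cells, as Pearson's r of Poisson residuals over 2055 cells and 4022 other genes. Csf2ra was most like Malat1 (r = 0.118), a nuclear noncoding RNA, then mt-Atp6 (0.0917), a mitochondrial gene, and Suv420h1 (0.0831), a histone methyltransferase. Csf2rb was most like Cd44 (0.118), an adhesion receptor, Malat1 (0.114) and Lpin1 (0.111), an enzyme of lipid synthesis. Flt1 was most like Ptk2b (0.0970), a cytoplasmic tyrosine kinase, Dusp5 (0.0934), a phosphatase that acts on ERK, and Hnrnpd (0.0863), an RNA-binding protein. Csf2ra and Csf2rb had r = 0.00531 with each other, which ranked 1632 of 4022 for Csf2ra. All of these are weak, the cells share a library and its depth, and no relation is drawn from them.

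Other genes of the same pathways were taken from lists, from ligands to targets. Of 9 ligands, 4 were listed and none reached 200 UMIs: Vegfa had 137 UMIs, Vegfb 58, Pgf (placental growth factor) 20 and Csf1 (M-CSF) 6. The genes of GM-CSF (Csf2), Il34, Il3, Il5 and Vegfc were not listed. Of 11 partner receptors, the VEGF co-receptors Nrp1 (0.703 per 10000) and Nrp2 (0.526) and the granulocyte receptor Csf3r (0.0928) led, and Il5ra, Kdr, Flt4, Kit, Flt3, Pdgfra and Pdgfrb were not listed. Flt1 was thus the only one of the 3 VEGF receptor tyrosine kinases (Flt1, Kdr and Flt4) in the matrix.

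Among the other kinases and transcription factors of this kind, Jak1 (1.15 per 10000), Stat3 (1.07) and Stat6 (0.505) each stood above Jak2 (0.174), Stat5a (0.191) and Stat5b (0.224), and Stat4 was not listed. The inhibitors were led by the phosphatases Ptpn1 (2.33) and Ptpn6 (1.45) and the ubiquitin ligase Cbl (1.45). The adaptors and kinases were led by Tyrobp (24.9), Lyn (2.23) and Mapk3 (2.07). Targets of the GM-CSF signal and of the AM programme ran from 0.00277 to 29.8 per 10000 with a median of 2.17, led by the transcription factor Cebpb at 29.8, the lipase Lpl at 18.3 and the sterol exporter Abcg1 at 11.6. Of the 24 targets, 17 were found in over 20% of cells, where 2149 of all 11918 genes were. Pparg, the lipid-sensing factor that GM-CSF induces in AMs and that was named here after its values were seen, stood at 1.17. Genes tied to CSF1R-dependent macrophages were led by Runx1 (4.96), Mertk (2.099) and Irf8 (0.712), while the complement gene C1qc was not listed.

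**Figure D5:**
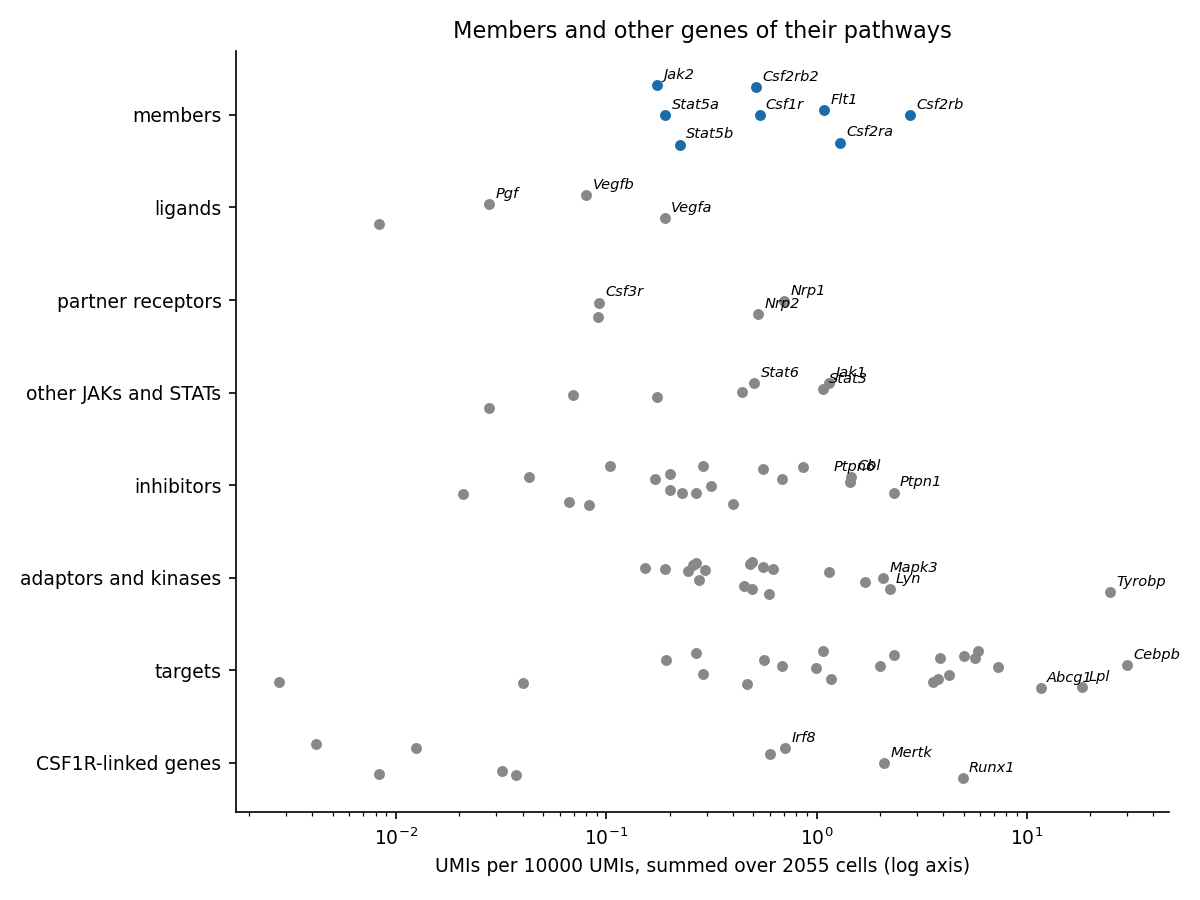
Level in UMIs per 10000 UMIs over 2055 cells (log axis) of the 8 members and of the listed genes of 7 pathway lists, 1 point per gene, with the vertical scatter within a row carrying no value. The members run from 0.174 (Jak2) to 2.78 (Csf2rb), the ligands stay at or below 0.190 (Vegfa), and the targets reach 29.8 (Cebpb).

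In the cell cycle range, 51 of these pathway genes had at least 200 UMIs, 3 were at least 1.5-fold higher and 6 at least 1.5-fold lower, with a median ratio of 0.890. Over all 4279 genes these shares were 10.6% higher and 9.56% lower, with a median of 0.987, so the count of lower pathway genes was near that of all genes. Among those higher were the phosphatases Ptpn2 (ratio 1.51, 1.05 to 2.12) and Ptpn11 (1.58, 0.971 to 2.46). Among those lower were the adaptors Tyrobp (0.573, 0.530 to 0.619) and Shc1 (0.606, 0.328 to 1.03) and the targets Cd36 (0.617, 0.511 to 0.739), Car4 (0.623, 0.531 to 0.726) and Abcg1 (0.665, 0.596 to 0.739). Of the 20 targets with at least 200 UMIs, 16 had a ratio below 1, with a median of 0.769, where 2225 of all 4279 genes had one. Of those 20, Pparg, Car4, Fabp4, Fabp5, Abcg1 and Lpl are also on the list of AM markers given above. Csf1r at 0.273 was below all of these genes, and Csf2ra, Csf2rb and Csf2rb2 lay within their span.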

How the data were processed

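AMs of 1 mouse were analysed. The authors aligned reads to mm10 and counted UMIs with Cell Ranger 2.1, and the deposited log values are the natural log of (UMIs per 10000 UMIs of a cell + 1), made with Seurat. A deposited score per gene and cell, scaled once depth and mitochondrial content had been regressed out, served only as an alternative. UMIs were recovered from the log values as whole multiples of a step in each cell (100% of 3052476 values within 0.001 UMIs). The limit on genes per cell held (528 to 2495 genes). No doublet caller was run. Counts were summed over cells, and exact Poisson, binomial and conditional intervals (95%) were taken. Expected joint detection was summed over cells from Poisson detection at each depth. Steps were tested on simulated data. Gene positions came from GENCODE M21 and promoters from RefSeq. Named genes were the 8 members, the 3 genes most like each, of each pathway list the 3 highest, those not listed and those past 1.5-fold in the cell cycle range, of each marker list the highest 2 and those not listed, and Hdac3, and some genes that this rule takes are not reported here. Members and lists were chosen with earlier results of these data known. Tools were numpy 2.4.6, pandas 2.3.3 and scipy 1.17.1 under Python 3.11.15. With 1 library there is no test between samples.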

Additional observations from a re-analysis of the deposited data

How the results depend on the processing

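Of 285 values computed under another setting, 265 were counted as unchanged, 20 as moved and 0 as reversing a difference whose interval excluded 1. Levels, shares of cells, counts of genes and ratios whose interval included 1, with all joint ratios among them, could not be counted as reversed. The ratio of Flt1 in the cell cycle range, for example, went from 0.882 to 1.03 with the S list and was counted as unchanged. Unchanged meant within the counting interval of the value reported. For differences of deposited values it meant only that no difference whose interval excluded 1 was reversed. For correlations it meant a positive sign, and for counts of genes a value within 1.5-fold. Thinning to 2000 UMIs lowered the share of cells to 41.3% for Csf2rb, 21.7% for Csf2ra, 19.1% for Flt1, 10.1% for Csf1r and 9.55% for Csf2rb2, as fewer UMIs must. For 312 cells there was no UMI of an epithelial, endothelial, lymphocyte, neutrophil or fibroblast marker. The epithelial list set most of this filter, with a UMI in 81.0% of cells, led by Epcam (58.1%) and Krt19 (48.4%). In the 312 cells the level of Csf2rb2 was 0.415 and that of Csf1r 0.659 UMIs per 10000, and the cause was not tested. Markers of monocytes, dendritic cells and eosinophils were not part of this filter. Csf1r UMIs per Csf2ra UMI were 0.416 in all cells and 0.562 in the lowest depth tertile, and the cause was not tested. The ratio of Csf2rb in the cell cycle range was 0.865 with 10% of cells, 0.879 as UMIs per cell and 0.383 in the highest depth tertile, the last of these added, like UMIs per cell, after seeing the data, and the cause was not tested. Genes at least 1.5-fold higher in the cell cycle range numbered 454 with at least 200 UMIs, 1249 with at least 50 and 2634 with no limit, and those lower 409, 1090 and 2979, as more genes of few UMIs were admitted. In the 2.5% of cells highest in cytokine and chemokine genes, the ratio of Csf2ra was 0.846, where it was 1.13 with 5%, and 0 UMIs of Jak2 were found. With 1 library of 1 mouse, nothing bears on variation between mice, and no paired analysis was possible because there is 1 group. Depth limits the signalling genes most, since Jak2, Stat5a and Stat5b had 126 to 162 UMIs in all.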
